A study of Homo sapiens with 8 samples.

Results

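The 10 genes described here belong to the circadian clock: the activators CLOCK and ARNTL2, the repressors PER1, PER2, PER3, CRY1 and CRY2, the nuclear receptors NR1D1 and NR1D2, and the output factor DBP. They were chosen by symbol from the 60230 genes of the count table, with earlier results of these data known. RNA was sequenced from HepG2 cells, a human liver cancer line, that had been transfected to overexpress CYP2C19, a drug-metabolizing cytochrome P450, and were kept under blasticidin so that transfected cells remained. All 8 samples, the controls included, carry this change. Cells were seeded 24 h before treatment and then received compound 4, compound 5, compound 6 or the solvent DMSO for 24 h, with 2 replicates in each of the 4 groups. Each compound was given at its own IC50. The paper calls these values rather comparable for compounds 4–6, so the concentrations differed slightly between compounds.

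Compounds 4–6 are plastic antioxidants built from a pair of bridged phenol rings. In compounds 4 and 5 the rings carry tert-butyl groups and in compound 6 cyclohexyl groups. By their names, the rings of compounds 4 and 6 also carry methyl groups, while those of compound 5 are di-tert-butyl. The bridge is a methylene in compounds 4 and 6 and an ethane-derived carbon in compound 5. The sources used here name no step that set the clocks of the cultures to a common phase. The cells were harvested at a single time after treatment, so a shift of phase and a change of mean level cannot be told apart, and in bulk RNA fewer cells with a gene switched on and less RNA per cell cannot be told apart either. The labels mark the replicates as day 1 and day 2 without saying what the day refers to or whether the cultures were separate, so the p-values measure the spread between these samples, which may be technical.

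In the clock of mammalian cells, CLOCK and its partner BMAL1 bind E-box elements and switch on the PER and CRY genes, whose proteins return to the nucleus and block the activators. The same activators drive NR1D1 and NR1D2, which encode the heme-binding repressors REV-ERBα and REV-ERBβ. These occupy ROR/REV-ERB elements in BMAL1, NPAS2 and NFIL3 and close a second loop, and in liver they also restrain genes of lipid and glucose metabolism.

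NR1D1, NR1D2 and CRY1 stood above DMSO in all treated libraries, and the other 7 members did not pass the test against DMSO. NR1D1 changed the most, with a level 4.26-fold that of DMSO after compound 5 (95% interval 2.75 to 6.60). NR1D2 was 1.97-fold (1.41 to 2.76) its DMSO level in the same cells, and CRY1 was 1.55-fold (1.22 to 1.98) its DMSO level after compound 4. Adjusted p-values throughout are from the quasi-likelihood test of edgeR, corrected after Benjamini and Hochberg over 13400 genes, and a gene was called at an adjusted p under 0.05. Compound 4 raised 1 of the 10 members, against 9.51% of all genes called in either direction. Compound 5 raised 2 of 10, against 8.3% of all genes. For compound 6 the count was 0 of 10, against 0.575% of all genes. At an unadjusted p under 0.05 there were 2 of 10 members, beside 2490 of 13400 genes. DESeq2 called 1 of 10 members for compound 6, beside 518 of 13236 genes.

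The members' median log2-fold change was −0.04 for compound 4, 0.11 for compound 5 and 0.12 for compound 6, beside medians of 0.01, 0.00 and 0.02 over all genes tested. Groups of libraries that did not overlap with DMSO were found for 5, 5 and 4 of the 10 members after compounds 4, 5 and 6, while 58.4%, 59.5% and 55.4% of all genes tested showed no overlap. The 3 members that were higher in all 6 treated libraries compare with 26.1% of all genes whose 6 treated libraries lay on one side of both controls. The 3 comparisons share the same DMSO libraries. Most genes thus showed no overlap with 2 libraries on each side, and the members' shares were near those of all genes.

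**Figure D1:**
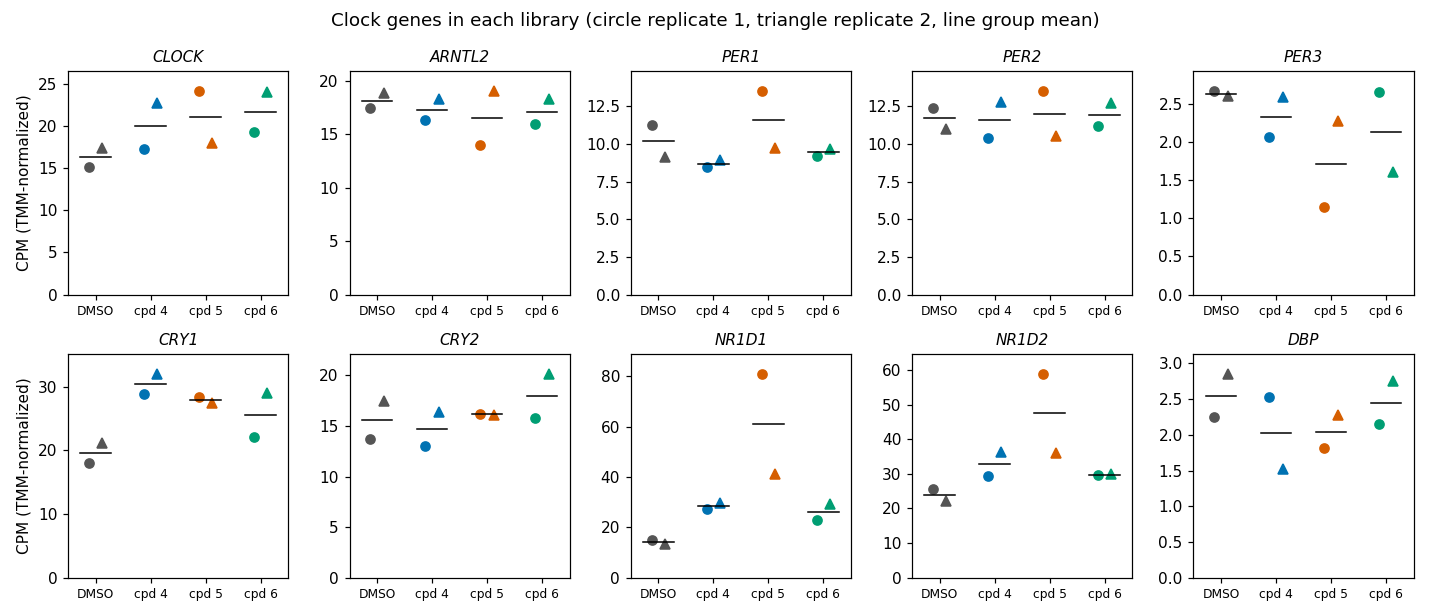
TMM-normalized CPM (linear axis from 0) of the 10 clock genes in each of the 8 libraries, with a circle for replicate 1, a triangle for replicate 2 and a line at the group mean. NR1D1 rose from 13.5 and 15.1 CPM in DMSO to 41.3 and 80.8 CPM after compound 5, whereas the PER2 libraries lie between 10.4 and 13.5 CPM in all groups.

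CLOCK (ENSG00000134852, chromosome 4, 55427903 to 55547138, minus strand, GRCh38) encodes the activator with histone acetyltransferase activity. Its level in CPM (the count scaled to the size of its library, with TMM factors) was 15.2 and 17.4 in DMSO, 17.3 and 22.7 after compound 4, 24.1 and 17.9 after compound 5, and 19.3 and 23.97 after compound 6. The compound 5 and compound 6 libraries were above both controls, and 1 compound 4 library lay between them. The log2-fold changes of 0.29 ± 0.20, 0.36 ± 0.20 and 0.41 ± 0.20 (± SE) did not pass the test, with adjusted p of 0.38, 0.26 and 0.31.

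ARNTL2 (current symbol BMAL2, ENSG00000029153, chromosome 12, 27332854 to 27425289, plus strand) encodes a relative of BMAL1 that can pair with CLOCK. Its libraries ranged from 13.995 to 19.06 CPM, and those extremes were the 2 replicates of compound 5. The DMSO libraries stood at 17.5 and 18.8 CPM, inside that range, and the log2-fold changes were between −0.13 and −0.07. Neither activator passed the test.

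The PER genes encode the period proteins, whose stability sets the length of the cycle. PER1 (ENSG00000179094, chromosome 17, 8140472 to 8156506, minus strand) measured 11.3 and 9.13 CPM in DMSO, 8.44 and 8.90 after compound 4, 13.5 and 9.73 after compound 5, and 9.22 and 9.66 after compound 6. Both compound 4 libraries were below both controls, yet the log2-fold change was −0.23 ± 0.21 with an adjusted p of 0.52. PER2 (ENSG00000132326, chromosome 2, 238244038 to 238290102, minus strand) lay between 10.4 and 13.5 CPM in all libraries. Its DMSO values of 12.4 and 10.97 CPM overlapped with every treated group, and its log2-fold changes were −0.00, 0.04 and 0.03, with 95% intervals that together ran from −0.43 to 0.46. PER3 (ENSG00000049246, chromosome 1, 7784320 to 7845177, plus strand) was the lowest repressor, at 2.66 and 2.60 CPM in DMSO, 2.06 and 2.59 after compound 4, 1.15 and 2.28 after compound 5, and 2.65 and 1.61 after compound 6. The compound 4 and compound 5 libraries were below both controls, by little in 1 of them, and the compound 6 libraries overlapped with DMSO. These values rest on 14 to 40 counts a library, and at this depth a log2 difference of −0.58 ± 0.40 after compound 5 (adjusted p = 0.37) was not detectable as a change.

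The promoter windows of the PER genes hold matches to clock motifs, shown here because these genes are the classical E-box and D-box targets and can be set beside the REV-ERB genes. The sequences are from RefSeq (GRCh38.p14) and run 5′ to 3′ on the strand of the gene, with the motif in capitals and 10 flanking bases on each side. All 10 members had a window of 250 bases before and 50 bases after a transcription start, 14 windows in all.
PER1 E-box, chr17:8152562-8152587, minus strand, intron in GENCODE 29: cacccaggtcCACGTGcgcccgtgtg
PER2 E-prime box, chr2:238288792-238288817, minus strand, intron: cgcgcgcggtCACGTTttccactatg
PER2 D-box, chr2:238288596-238288623, minus strand, exon: ccgctgcggcTTACGTAAccgccgccgg
PER3 D-box, chr1:7784104-7784131, plus strand, upstream of the gene: agcccgcgcgTTATGTAAcgcgccccgg
The motifs searched on both strands were the E-box CACGTG, the E-prime box CACGTT, the D-box TTATGTAA or TTACGTAA, the ROR/REV-ERB element TAGGTCA or TGGGTCA, and the cyclic AMP element TGACGTCA. Of 35116 promoter windows of that length, 7.26% held an E-box, 5.34% an E-prime box, 1.01% a D-box, 5.69% a ROR/REV-ERB element and 1.85% the cyclic AMP element. These are matches of letters and do not show that a factor binds there.

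CRY1 and CRY2 encode cryptochromes, which bind CLOCK and its partner and silence them. CRY1 (ENSG00000008405, chromosome 12, 106991364 to 107093829, minus strand) measured 18.0 and 21.1 CPM in DMSO, 28.9 and 31.9 after compound 4, 28.3 and 27.5 after compound 5, and 22.2 and 28.99 after compound 6. All 6 treated libraries were above both controls, with 1 compound 6 library only just so. The log2-fold change was 0.63 ± 0.16 after compound 4 (adjusted p = 0.035), 0.51 ± 0.16 after compound 5 (adjusted p = 0.073) and 0.38 ± 0.16 after compound 6 (adjusted p = 0.24). With the day as a block, the adjusted p for compound 5 was 0.048. The compound 4 call was lost without either DMSO library or either compound 4 library, with log2-fold changes of 0.52 to 0.76. Fits without a DMSO library, compound 4 replicate 2 or compound 5 replicate 1 also lost most calls over all genes for the compound concerned. A call lost in such a fit, here or below, thus does not single out a gene.

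CRY2 (ENSG00000121671, chromosome 11, 45847118 to 45883248, plus strand) measured 13.7 and 17.4 CPM in DMSO and between 13.04 and 20.09 CPM in the treated libraries. Every treated group overlapped with DMSO, and the log2-fold changes were −0.08, 0.05 and 0.20 (SE 0.18 to 0.19). The CRY1 window held an E-prime box, printed because CRY1 is the called member of this family, and a second CRY2 window held an E-prime box and a ROR/REV-ERB element, read as for the PER genes.
CRY1 E-prime box, chr12:107093623-107093648, minus strand, exon: acacttcagaAACGTGaggtgccggt
CRY2 E-prime box, chr11:45847277-45847302, plus strand, exon: acatggtaggAACGTGagggggcggg
CRY2 ROR/REV-ERB element, chr11:45847400-45847426, plus strand, exon: tgcggcgtcaTAGGTCActgggcgggc
In CRY1 and CRY2 the E-prime box is read from the opposite strand, so its letters appear as AACGTG. The E-prime box was thus common to a member that rose and a member that did not pass the test.

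NR1D1 (ENSG00000126368, chromosome 17, 40092787 to 40100725, minus strand) encodes REV-ERBα. It measured 15.1 and 13.5 CPM in DMSO, 27.5 and 29.7 after compound 4, 80.8 and 41.3 after compound 5, and 23.1 and 29.2 after compound 6. All treated libraries were above both controls, the compound 4 and compound 6 libraries interleaved, and both compound 5 libraries were above all others. The log2-fold change was 2.09 ± 0.28 after compound 5 (adjusted p = 0.0056), 1.01 ± 0.29 after compound 4 (adjusted p = 0.055) and 0.87 ± 0.29 after compound 6 (adjusted p = 0.15).

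The compound 5 libraries were far apart for this gene: replicate 1 held 1.95 times the level of replicate 2. Only 3.49% of all genes tested differed by at least as much between those replicates, and in the other groups NR1D1 differed between replicates by 0.11 to 0.34 on the log2 scale. Without compound 5 replicate 1 the log2-fold change was 1.53, and without replicate 2 it was 2.51, and NR1D1 was called in both fits. The compound 5 call was lost without DMSO replicate 1 (adjusted p = 0.054) or 2 (0.074). For compound 4, NR1D1 was called by DESeq2 (adjusted p = 0.00456), in the fit of the 4 samples alone (0.0045) and without either compound 5 library. For compound 6 DESeq2 and the 4 samples alone gave adjusted p of 0.046 and 0.016, and it was also called without either compound 5 library. Leaving out compound 5 libraries removes the widest replicate gap of this gene, while its compound 4 log2-fold change stayed at 1.00 to 1.01. The lower p in those fits and with the 4 samples alone is thus no separate support.

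NR1D2 (ENSG00000174738, chromosome 3, 23945260 to 23980618, plus strand) encodes REV-ERBβ. It measured 25.7 and 22.3 CPM in DMSO, 29.5 and 36.4 after compound 4, 58.7 and 36.1 after compound 5, and 29.5 and 30.0 after compound 6. Every treated library exceeded both controls, and the higher library was again replicate 1 of compound 5, while replicate 2 lay just under the higher compound 4 library. The log2-fold change was 0.98 ± 0.22 after compound 5 (adjusted p = 0.027), 0.46 ± 0.22 after compound 4 (adjusted p = 0.21) and 0.31 ± 0.22 after compound 6 (adjusted p = 0.48). The compound 5 call was lost without compound 5 replicate 1, where the log2-fold change was 0.58, and without either DMSO library. Such fits also lost most calls over all genes, so the loss does not single out NR1D2. In the fit of the 4 samples alone the adjusted p was 0.054.

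The windows of the REV-ERB genes are shown because these are the members that differed most from DMSO. The NR1D1 window held 1 match, and the window at the second NR1D2 start held 4.
NR1D1 E-prime box, chr17:40100742-40100767, minus strand, upstream of the gene: gcaagagctcAACGTGccggctgttg
NR1D2 D-box, chr3:23945917-23945944, plus strand, intron: tgacgcggcaTTACATAAtgggcgctga
NR1D2 first E-box, chr3:23945956-23945981, plus strand, intron: cgggcggggaCACGTGaggccgctcg
NR1D2 ROR/REV-ERB element, chr3:23945978-23946004, plus strand, intron: ctcggctcccTGACCCAcattccccgg
NR1D2 second E-box, chr3:23946006-23946031, plus strand, intron: gccgcagggaCACGTGggggcggggg
The D-box and the ROR/REV-ERB element of NR1D2 and the E-prime box of NR1D1 are read from the opposite strand. Each of the 3 members that rose in a comparison had an E-box or E-prime box in a window, and so did CLOCK, PER1, PER2 and CRY2, which passed no test against DMSO. The windows of ARNTL2 and DBP held none of the letters searched.

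DBP (ENSG00000105516, chromosome 19, 48630030 to 48637438, minus strand) encodes a D-box activator that carries the clock's rhythm to genes of liver metabolism. It was among the lowest members, at 2.25 and 2.85 CPM in DMSO, 2.53 and 1.52 after compound 4, 1.81 and 2.28 after compound 5, and 2.16 and 2.75 after compound 6. All groups overlapped, and the 20 to 40 counts a library gave SE of 0.36 to 0.37 around log2-fold changes of −0.35, −0.31 and −0.06. No change of DBP was detectable at this depth, although it is a textbook E-box target like the REV-ERB genes.

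**Figure D2:**
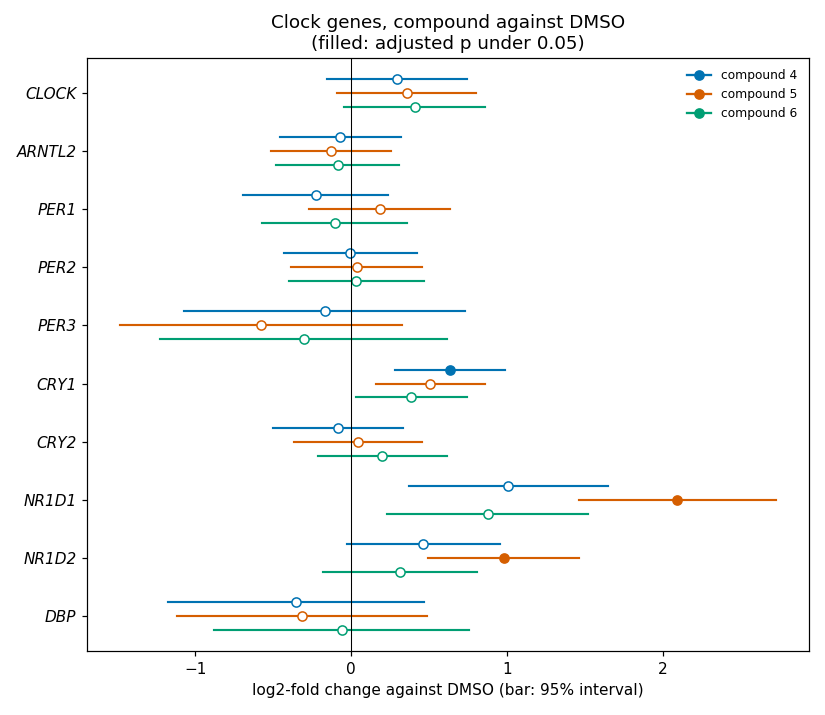
Log2-fold change against DMSO of the 10 clock genes for compounds 4–6 (points) with 95% intervals (bars), filled where the edgeR adjusted p is under 0.05. The filled points are CRY1 for compound 4 (0.63) and NR1D1 and NR1D2 for compound 5 (2.09 and 0.98), and the intervals of PER3 and DBP are the widest.

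Per kilobase of exon, the DMSO level fell from NR1D1 (5.15 ± 0.40 CPM per kb, SD, n = 2) through NR1D2 (4.12 ± 0.42) and CRY1 (3.87 ± 0.43) to ARNTL2 (2.60 ± 0.13) and CRY2 (2.51 ± 0.42). PER2 (1.70 ± 0.15), PER1 (1.46 ± 0.22), CLOCK (1.39 ± 0.14), DBP (0.39 ± 0.06) and PER3 (0.325 ± 0.006) followed. The ranges of the 2 libraries overlapped for NR1D2 and CRY1, for ARNTL2 and CRY2, for PER2 and PER1, and for PER1 and CLOCK, so those neighbours in the order did not differ beyond their spread. These levels divide by the union of annotated exons of GENCODE 29, which was 6544 bases for DBP and 2772 for NR1D1. The union counts the exons of every annotated transcript, whether expressed here or not, so the order between genes is only approximate.

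Across the 3 compounds taken as 1 group against DMSO, 2 of 10 members were called, against 10.9% of all genes. NR1D1 had a mean log2-fold change of 1.32 ± 0.25 (adjusted p = 0.014) and CRY1 of 0.51 ± 0.13 (adjusted p = 0.039). NR1D2 stood at 0.58 ± 0.18 with an adjusted p of 0.070. It was called by DESeq2 (0.0286), by edgeR without a filter (0.00063) and without compound 5 replicate 2. That last fit leaves out the gap between the compound 5 replicates. Without a filter the calls over all genes also rose, from 1461 to 2572. Both calls were lost without DMSO replicate 1 (adjusted p of 0.080 for NR1D1 and 0.26 for CRY1) or replicate 2 (0.19 and 0.21). The CRY1 call was also lost without compound 4 replicate 2 (0.077), compound 5 replicate 1 (0.058) or compound 6 replicate 2 (0.081).

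**Figure D3:**
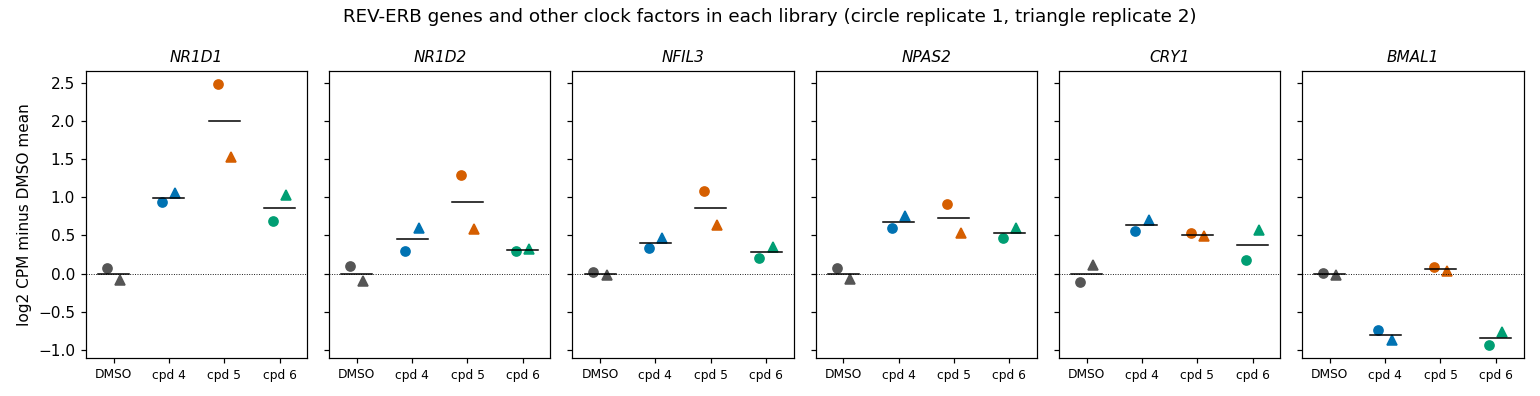
Log2 CPM of NR1D1, NR1D2, NFIL3, NPAS2, CRY1 and BMAL1 in each library minus the mean of the 2 DMSO libraries (circle for replicate 1, triangle for replicate 2, line at the group mean, dotted line at 0). Compound 5 replicate 1 is the top point for NR1D1, NR1D2, NFIL3 and NPAS2 (2.49, 1.29, 1.08 and 0.91). BMAL1 lies below DMSO after compounds 4 and 6 (−0.93 to −0.74) and at 0.04 and 0.08 after compound 5.

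The wider clock was read from 3 lists of other clock genes, of which 35 of 40 genes had enough counts to be tested. Of 11 other clock transcription factors, 8 were tested, and RORB, BHLHE41 and CIART were not. Compound 4 raised 1 and lowered 1 of the 8 and compound 5 raised 2, beside 9.51% and 8.3% of all genes. Compound 6 changed 0, beside 0.575% of all genes. At an unadjusted p under 0.05 there were 2 of the 8, beside 2490 of 13400 genes. DESeq2 called 0, beside 518 of 13236 genes. NPAS2, a paralog of CLOCK that also pairs with BMAL1, measured 42.4 and 38.4 CPM in DMSO, 60.9 and 68.4 after compound 4, 76.1 and 58.5 after compound 5, and 55.9 and 61.2 after compound 6. All treated libraries exceeded both controls. Its log2-fold change was 0.68 ± 0.15 after compound 4 (adjusted p = 0.022), 0.73 ± 0.15 after compound 5 (adjusted p = 0.019) and 0.54 ± 0.15 after compound 6 (adjusted p = 0.11). Both calls were lost without either DMSO library (adjusted p of 0.075 to 0.20), the compound 4 call also without compound 4 replicate 2 (0.14) and the compound 5 call without compound 5 replicate 1 (0.12). For compound 6, NPAS2 was called without a filter (0.012) and in the fit of the 4 samples alone (0.026). These settings also raised the calls over all genes, from 77 to 1355 and 1023. It was called without compound 5 replicate 1 or 2 too, which leaves out the widest replicate gap of this gene.

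NFIL3, also called E4BP4, encodes a repressor that competes with DBP for D-boxes. It measured 62.2 and 60.2 CPM in DMSO, 77.2 and 84.3 after compound 4, 129.7 and 94.9 after compound 5, and 70.8 and 78.0 after compound 6. The order of the groups was that of NR1D1, with compound 5 above the rest. The log2-fold change was 0.87 ± 0.15 after compound 5 (adjusted p = 0.012), 0.40 ± 0.15 after compound 4 (adjusted p = 0.12) and 0.28 ± 0.15 after compound 6 (adjusted p = 0.35). The compound 4 difference was called without compound 5 replicate 1 or 2, which leaves out the widest replicate gap of this gene. The compound 5 call was lost without compound 5 replicate 1 and without either DMSO library. Over the fits that left out a library or a replicate number, its log2-fold change ranged from 0.62 to 1.09.

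BMAL1, the usual partner of CLOCK, measured 5.64 and 5.53 CPM in DMSO, 3.28 and 2.97 after compound 4, 5.93 and 5.75 after compound 5, and 2.85 and 3.22 after compound 6. Every compound 4 and compound 6 library was below every DMSO and compound 5 library. BMAL1 fell by 0.84 on the log2 scale after compound 4 (SE 0.23, adjusted p = 0.048). The difference was −0.88 ± 0.23 after compound 6 (adjusted p = 0.10). That difference passed the threshold in an alternative fit that kept all libraries of both groups, but in none that left out a library. BMAL1 differed by 0.06 ± 0.21 after compound 5 (adjusted p = 0.87). Its libraries held 29 to 101 counts, and the compound 4 call was lost without any 1 of the 8 libraries (adjusted p of 0.054 to 0.23) and in DESeq2 (0.21). BMAL1 was thus lowest after compounds 4 and 6 and near its DMSO level after compound 5, where NR1D1 was highest.
BMAL1 ROR/REV-ERB element, chr11:13277810-13277836, plus strand, exon: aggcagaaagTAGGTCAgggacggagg
NFIL3 ROR/REV-ERB element, chr9:91423825-91423851, minus strand, exon: cgctcggaacTGACCTActaacacaca
These 2 elements are shown because BMAL1 and NFIL3 are known REV-ERB targets, and the one of NFIL3 is read from the opposite strand.

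RORA, a nuclear receptor that activates through the elements REV-ERB represses, had log2-fold changes of 0.35 ± 0.22, 0.24 ± 0.22 and −0.03 ± 0.22, and passed no test (adjusted p of 0.32 to 0.95). Of 14 genes listed as kinases, ubiquitin enzymes and other modifiers of clock proteins, all were tested. FBXL21P among them is annotated as a transcribed unitary pseudogene. In each comparison with DMSO 0 were called by edgeR, beside 9.51%, 8.3% and 0.575% of all genes. At an unadjusted p under 0.05 there were 3, 7 and 5 of the 14 for compounds 4, 5 and 6. Over all 13400 genes there were 3688, 3811 and 2490. DESeq2 called 0, 2 and 0 of the 14, beside 1384 of 12788, 1284 of 12341 and 518 of 13236 genes. The median log2-fold changes of the 14 were 0.22, 0.29 and 0.14.

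Of 15 genes known as outputs of the clock, 13 were tested, and CYP7A1 and RGS16 were not. Compound 4 raised 2, compound 5 raised 4 and compound 6 changed 0, and 0 were called lower, beside 9.51%, 8.3% and 0.575% of all genes called in either direction. For compound 6, 3 of the 13 were at an unadjusted p under 0.05, beside 2490 of 13400 genes. DESeq2 called 1, beside 518 of 13236 genes. The list medians were 0.25, 0.42 and 0.09 on the log2 scale. KLF9, a Krüppel-like factor that also answers to glucocorticoids, measured 4.10 and 3.27 CPM in DMSO, 8.26 and 8.97 after compound 4, 14.7 and 8.59 after compound 5, and 9.32 and 12.5 after compound 6. All treated libraries lay above both controls. Its log2-fold change was 1.23 ± 0.30 (adjusted p = 0.033), 1.65 ± 0.29 (adjusted p = 0.014) and 1.57 ± 0.30 (adjusted p = 0.054). Both calls were lost without either DMSO library (adjusted p of 0.074 to 0.24), the compound 4 call without either of its own libraries (0.074 and 0.16) and the compound 5 call without its replicate 1 (0.073).

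The other called outputs passed the test for 1 compound each, which does not show that the compounds differed. KLF10, a repressor induced by transforming growth factor β, rose by 0.66 ± 0.15 after compound 4 (adjusted p = 0.025). KLF15, a regulator of fasting metabolism, rose by 0.73 ± 0.14 after compound 5 (adjusted p = 0.016). PPARGC1A, the coactivator PGC-1α, which feeds fuel state into the clock, rose by 0.89 ± 0.18 after compound 5 (adjusted p = 0.022). POR, which passes electrons to cytochrome P450 enzymes, rose by 0.49 ± 0.10 after compound 5 (adjusted p = 0.021). Without either DMSO library the adjusted p of these 4 genes was 0.087 to 0.20, and without compound 4 replicate 2 (KLF10) or compound 5 replicate 1 (the others) it was 0.095 to 0.15. PPARGC1A also missed the threshold in the fit of the 4 samples alone (0.052).

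The compounds were next set against each other in 3 pairs, at concentrations that differed slightly, with p-values adjusted over all genes of each pair. Compound 4 and compound 5 differed in 0 of 10 members, beside 0.313% of all genes. Compound 6 and compound 5 differed in 0 of 10, beside 1.03%, and compound 4 and compound 6 in 0 of 10, beside 0% of all genes. At an unadjusted p under 0.05 edgeR gave 2, 2 and 0 members, beside 2177, 2483 and 945 of 13400 genes. DESeq2 called 1, 1 and 0 members, beside 194 of 12341, 364 of 11893 and 59 of 11893 genes. With the day as a block, the all-gene counts went from 42 to 128 genes in the first pair and from 138 to 269 in the second.

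The log2 difference of NR1D1 between compounds 4 and 5 was −1.09 ± 0.27 (95% interval −1.68 to −0.49, adjusted p = 0.12). Between compound 6 and compound 5 the difference was −1.22 ± 0.27 (−1.82 to −0.62, adjusted p = 0.065). Neither passed the edgeR threshold. No library of one group reached those of the other, but the share of all genes without overlap was not taken for these pairs. For these NR1D1 differences DESeq2 gave adjusted p of 0.00457 and 0.000372. Both were also called by edgeR without compound 5 replicate 2, a fit that keeps the higher library and leaves out the wide gap between the replicates. Over the fits that left out a library or a replicate number, the differences ranged from −1.55 to −0.47 and from −1.80 to −0.50. Compounds 4 and 6 differed in NR1D1 by 0.13 ± 0.27 (−0.48 to 0.74, adjusted p = 0.95). They share the methylene bridge and the ring methyl groups and differ in the tert-butyl or cyclohexyl groups. Compound 5 differs from both in the bridge and in the ring groups, and the part of either was not tested.

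NR1D2 differed by −0.52 ± 0.21 between compounds 4 and 5 (−0.99 to −0.04, adjusted p = 0.28) and by −0.66 ± 0.21 between compounds 6 and 5 (−1.14 to −0.19, adjusted p = 0.15). The second was called without compound 5 replicate 2, a fit that keeps the higher compound 5 library and leaves out the gap between the replicates. CRY1 was closer between compound 5 and the others than NR1D1 and NR1D2 were, but not between compounds 4 and 6, with log2 differences of 0.13 (−0.21 to 0.47), −0.12 (−0.47 to 0.22) and 0.25 (−0.10 to 0.60) in the 3 pairs. BMAL1 differed by −0.90 ± 0.22 between compounds 4 and 5 (−1.40 to −0.40, adjusted p = 0.12) and by −0.94 ± 0.23 between compounds 6 and 5 (−1.45 to −0.43, adjusted p = 0.078). Both differences passed the threshold in an alternative fit that kept all libraries of the groups compared, but in none that left out a library. Between compounds 4 and 6 BMAL1 differed by 0.04 ± 0.24 (−0.50 to 0.58, adjusted p = 0.99).

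**Figure D4:**
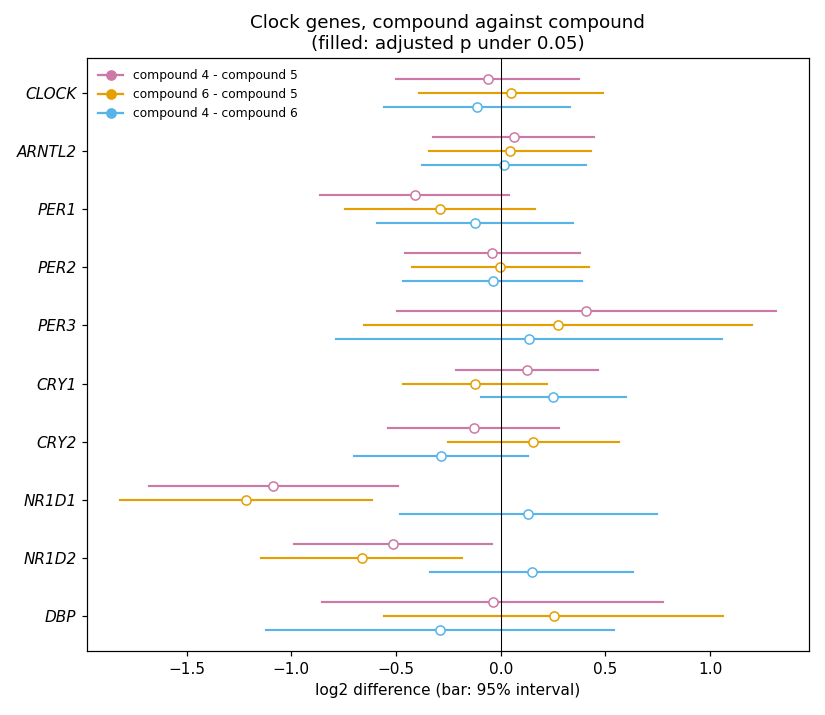
Log2 difference (points) with 95% interval (bars) of the 10 clock genes between compounds 4 and 5, 6 and 5, and 4 and 6, all open because no edgeR adjusted p was under 0.05. NR1D1 lies at −1.09 and −1.22 for the pairs with compound 5 and at 0.13 for compounds 4 and 6.

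Between the replicate days, 0 of 10 members were called by edgeR in a fit with the group, beside 0.157% of all genes, and DESeq2 gave the same count. The 2 members at an unadjusted p under 0.05 were CRY2 (0.24 ± 0.10) and ARNTL2 (0.23 ± 0.10), both higher on day 2, with an adjusted p of 0.44 each. Over all genes, 1494 of 13400 were at an unadjusted p under 0.05 for the day, and DESeq2 called 113 of 7866. NR1D1 had a day difference of −0.20 ± 0.20. The members' median absolute log2 difference between replicates was 0.20 in DMSO, 0.30 in compound 4, 0.43 in compound 5 and 0.32 in compound 6. Over all genes tested it was 0.16, 0.19, 0.21 and 0.16. In compound 5 the widest gap was that of NR1D1 (0.96), with at least 147 counts a library, followed by PER3 (0.89). These medians were not matched for level, and low counts, such as the 14 to 40 a library of PER3, widen such differences. They therefore do not show that clock genes vary more than other genes of their level.

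The genes most like each called member across the 8 libraries were found by Pearson's r of log2 CPM among 10527 genes of at least 5 CPM on average. Nearest to NR1D1 were NFIL3 (r = 0.992), ZFP36L1 (0.985), which encodes an RNA-decay factor, and RNGTT (0.983), the mRNA capping enzyme. NR1D2 was closest to REXO1 (0.986), SEC24A (0.985) and RHPN2 (0.984), and its r with NR1D1 was 0.964. CRY1 was closest to TTC9 (0.987), ZFAND2A (0.981) and RAB15 (0.981), and its r with NR1D1 was 0.684. Many genes came close: 318 had an r above 0.9 with NR1D1, 279 with NR1D2 and 184 with CRY1. The 8 points form 4 groups and share their libraries, so these values describe the pattern and carry no p.

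Some members share exon sequence with a neighbour. NR1D1 overlaps THRA, the thyroid hormone receptor α gene, over 263 exon bases on the opposite strand, and the library kit keeps strand while the strand setting of the counting is not given in the sources used here. THRA had log2-fold changes of −0.14, 0.11 and −0.01 and was not called. DBP overlaps SPHK2 over 661 bases and PER3 overlaps UTS2 over 868 bases, also on opposite strands, and UTS2 had 0 counts. SPHK2, a sphingosine kinase gene, was more abundant than DBP, at 14.96 and 15.2 CPM in DMSO, 12.9 and 8.29 after compound 4, 9.63 and 11.6 after compound 5, and 12.1 and 13.9 after compound 6. All its treated libraries were below both controls, and within each treated group the lower library was the same one as for DBP. Its log2-fold changes of −0.52, −0.51 and −0.22 were not called (adjusted p of 0.15, 0.15 and 0.62), and its part in the DBP values was not tested. PER1 shares 30 bases with AC129492.3 on its own strand, a gene with 117 counts in all libraries together. AC129492.3 measured 0.447 CPM on average in DMSO and 1.87, 1.35 and 1.11 CPM after compounds 4, 5 and 6, with adjusted p of 0.054, 0.13 and 0.31, and its part in the PER1 values was not tested.

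The libraries held 9791659 to 17814595 counts. All 10 hepatocyte markers fixed for the check, such as ALB and AFP, were present, with summed levels of 50708 to 54714 CPM in DMSO, 35010 to 42446 after compound 4, 43483 to 44751 after compound 5 and 37694 to 43829 after compound 6. Of these markers, 5 were called lower after compound 4, and after compound 5 FGB was called higher and APOC3 lower, beside 9.51% and 8.3% of all genes. After compound 6 edgeR called 0, with 6 at an unadjusted p under 0.05 and 5 called by DESeq2. Over all genes, 2490 of 13400 were at an unadjusted p under 0.05 for compound 6, and DESeq2 called 518 of 13236. The 11 markers of other cell types summed to 151 to 180, 240 to 265, 184 to 223 and 217 to 269 CPM in the same order, with KRT19 the most abundant, and the leukocyte marker PTPRC was at 0 in every library. Of the 5 that could be tested, PDGFRB rose from a mean of 7.07 to 24.2 CPM and CD68 from 22.4 to 38.9 CPM after compound 4 (adjusted p of 0.0063 and 0.016), and ACTA2 fell from 13.4 to 6.63 CPM after compound 5 (adjusted p = 0.032). For compound 6 edgeR called 0, with 3 at an unadjusted p under 0.05 and 2 called by DESeq2, beside the same counts over all genes. CYP2C19 measured 16.4 to 27.7 CPM in DMSO, 31.4 to 44.3 after compound 4, 37.96 to 52.8 after compound 5 and 21.2 to 23.9 after compound 6. The compound 4 and compound 5 libraries overlapped and were above both controls, with log2-fold changes of 0.79 (adjusted p = 0.086) and 1.05 (adjusted p = 0.040). The part of these marker and CYP2C19 levels in the clock gene results was not tested.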

How the data were processed

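Gene-level counts from RNA sequencing of 8 samples were analysed. Per the study's methods and the submitters' processing notes, the authors checked reads with FastQC 0.12.0, estimated transcript abundance with Salmon 1.5.0 on a GENCODE index and summarized it to genes with tximeta. The deposited values are these estimated counts (expected counts), given as whole numbers for 60230 genes without normalization, and 2 libraries (DMSO replicate 1 and compound 4 replicate 1) were merged from 2 runs each. All 8 deposited columns were used. Estimated counts divide reads between overlapping genes and transcripts, which can move the values of genes with shared exons. The total count differed between libraries by up to 1.82 times.

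Counts were analysed with edgeR 4.0.16 in R 4.3.3. Genes passing filterByExpr (minimum count 10) were kept, which left 13400, all 10 members included. Library sizes were scaled by TMM, and 1 quasi-likelihood fit of all 8 samples without a block gave each compound against DMSO, the 3 pairs of compounds and the mean of the compounds. The day was tested in a fit with group and day. Benjamini-Hochberg adjustment covered all genes tested, and intervals are 95% intervals from the same fit. With 2 libraries against 2, an exact two-sided permutation test cannot go below p = 0.333, so no single-gene permutation test was used. The edgeR fit was also run on counts simulated with the means, library sizes and dispersions of these data, with changes set only for compound 4.

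The labels give a shared day to the replicates of all groups, which pairs them. The deviations of same-day samples from their group means correlated across genes between −0.149 and 0.236 over the pairs of groups.

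The alternatives were DESeq2 1.42.0, DESeq2 size factors, no filter, at least 10 counts in every sample, the day as a block, only the 4 samples compared, and leaving out each library. The members and the lists of other clock genes were chosen with earlier results of these data known. A gene of the list of clock outputs is not reported here and was left out of its counts. Named genes were all members, list genes called against DMSO (at most 6 a list), BMAL1, NPAS2, NFIL3 and RORA, genes overlapping a member, and the 3 genes with the highest r for each called member. Gene positions and exons are from GENCODE 29, promoter windows from RefSeq. SD and SE are given with 2 replicates a group.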

Additional observations from a re-analysis of the deposited data

Results flagged for a closer look

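POR and KLF15, both clock output genes, differed between compounds 6 and 5 when edgeR tested the difference itself over all 8 libraries. POR was lower in compound 6 than in compound 5, with a log2 difference of −0.55 ± 0.10 (SE, adjusted p = 0.036), with 496 and 545 CPM in compound 6 and 798 and 727 CPM in compound 5. KLF15 was also lower, with a log2 difference of −0.72 ± 0.14 (adjusted p = 0.044), with 12.9 and 13.5 CPM in compound 6 and 22.6 and 20.7 CPM in compound 5. In both genes no library of compound 6 reached a library of compound 5. The share of all genes without overlap was not taken for this pair. Against DMSO, with 2 libraries on each side, it was 55.4% to 59.5%. The concentrations of the compounds differed slightly. Both calls were fragile. They were lost without any 1 of the 8 libraries, with adjusted p of 0.0513 to 0.347 for POR and 0.0630 to 0.343 for KLF15, and with only the 4 samples compared (0.111 and 0.118). DESeq2 kept POR (adjusted p = 9.61e-05) and lost KLF15 (0.0563). Without compound 6 replicate 1, edgeR called 0 genes of 13821 in this pair (1285 at an unadjusted p under 0.05), where the fit of all libraries called 138.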

How the results depend on the processing

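The count of called members depended on the processing in most comparisons. For compound 4 against DMSO it went from 1 to 2, with NR1D1 added, in DESeq2, without a filter, with at least 10 counts in every sample and with only the 4 samples compared, and it ranged from 0 to 2 when single libraries were left out. For compound 5 it went from 2 to 1 with only the 4 samples compared and to 3, with CRY1, without a filter, and it ranged from 0 to 2 without single libraries. For compound 6 it went from 0 to 1, with NR1D1, in DESeq2, without a filter and with only the 4 samples compared, and it ranged from 0 to 1. Between compounds 4 and 5 it was 1 in DESeq2 and 2 without a filter, with a range of 0 to 1, and between compounds 6 and 5 it was 1 (DESeq2) and 2 (no filter), with a range of 0 to 2. For the mean of the compounds it went from 2 to 3, with NR1D2, in DESeq2 and without a filter, and it ranged from 0 to 3 without single libraries. With the day as a replicate block, CRY1 joined the calls after compound 5 (3 members), and no other call of a named gene changed.

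Counts over all genes moved more. Without a filter they were 2383, 2431 and 1355 for compounds 4, 5 and 6 against DMSO, where the filtered fit gave 1275, 1112 and 77. The unfiltered edgeR fit gave much lower p at nearly the same log2-fold change. NR1D1 after compound 4 had an adjusted p of 3.8e-07 there instead of 0.055, so calls of that fit are weak support. For compound 6, DESeq2 gave 518, DESeq2 size factors 47, the filter on every sample 198, and the 4 samples alone 1023. In the pairs, compounds 4 and 5 gave 194 (DESeq2), 750 (no filter), 65 (filter on every sample) and 10 (4 samples) instead of 42, compounds 6 and 5 gave 364 (DESeq2), 990 (no filter) and 49 (4 samples) instead of 138, and compounds 4 and 6 gave 59 (DESeq2), 259 (no filter), 5 (filter on every sample) and 1 (block) instead of 0. The day gave 113 (DESeq2) and 175 (no filter) instead of 21, and the mean of the compounds 2572 (no filter) instead of 1461. Without DMSO replicate 1 or 2 the counts fell to 390 and 43 for compound 4 and to 77 and 46 for compound 5, where 1 control is assumed to vary like the other groups. The cause was not tested.

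Leaving out a library, or a replicate number in every group, turned the direction of some log2 differences, none of which was called in the fit of all libraries. Against DMSO the ranges over these fits were −0.37 to 0.056 for ARNTL2 after compound 5, −0.26 to 0.10 and −0.12 to 0.24 for CRY2 after compounds 4 and 5, −0.84 to 0.16 and −0.24 to 0.12 for DBP after compounds 4 and 6, and −0.71 to 0.015 for PER3 after compound 6. They were −0.073 to 0.41 and −0.29 to 0.081 for PER1 after compounds 5 and 6, and −0.25 to 0.22, −0.16 to 0.22 and −0.15 to 0.21 for PER2 after compounds 4, 5 and 6. Between compounds 4 and 6 the range was −0.019 to 0.31 for NR1D1, −0.018 to 0.29 for NR1D2 and −0.11 to 0.20 for BMAL1, and between compounds 4 and 5 it was −0.99 to 0.011 for NR1D2. Depth limits PER3 and DBP most.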
